A study of Mus musculus with 6 samples.

Results

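The Toll-like receptors described here are 10 mouse genes, Tlr1 to Tlr9 and Tlr13, chosen by name out of the 46983 genes of a read count table and found there through their Ensembl identifiers. All 10 were measured and all 10 passed the filter on low counts. The libraries came from macrophages differentiated in culture from mouse bone marrow. One group was wild-type (WT) and the other was AEG-1 knockout (AEG-1 KO), in which the gene Mtdh, encoding astrocyte elevated gene-1, is disrupted. Both groups were C57BL/6, both grew for 7 days in medium holding 10% serum and 20% medium from L929 cells, and neither received a treatment. There were 3 libraries per group, and the labels used here give neither the age or sex of the mice, nor the part of Mtdh removed, nor whether replicates were separate animals or cultures, and the spread that the p-values rest on may therefore be technical.

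Toll-like receptors are membrane proteins that bind conserved microbial molecules and start the inflammatory response of macrophages. Tlr1, Tlr2, Tlr4, Tlr5 and Tlr6 are known to sit mainly on the cell surface, where they meet lipopeptides, lipopolysaccharide and flagellin. Tlr3, Tlr7, Tlr8, Tlr9 and Tlr13 are known to work in endosomes, where they meet RNA and DNA. Apart from Tlr3, which uses the adaptor TRIF, all of them signal through MyD88, and Tlr4 uses both.

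The receptor genes Tlr7, Tlr8 and Tlr13 were higher in AEG-1 KO, by 1.28-fold to 1.36-fold, and Tlr1 was lower, at 81.8% of WT. The other 6 members did not pass the test, among them the endosomal Tlr3, which like those 3 senses RNA, and Tlr9. Of the 10 members 4 were called (quasi-likelihood test of edgeR at an adjusted p under 0.05, with the Benjamini-Hochberg method over 16115 genes), against 6.35% of all genes tested. Of the 5 endosomal members 3 were called higher and none lower. Of the 5 surface members none was called higher and 1 lower, although 4 of the 5 had log2 fold changes above 0. Over all genes 3.31% were called higher and 3.04% lower. The median log2 fold change, with AEG-1 KO relative to WT, was 0.36 over the endosomal members, 0.13 over the surface members and 0.01 over all genes tested. The 3 members that rose are also the 3 that lie on the X chromosome. On GRCm38 these genes span, exons and introns included, Tlr7 (ENSMUSG00000044583, chrX:167304929-167330558, minus strand), Tlr8 (ENSMUSG00000040522, chrX:167242696-167264329, minus strand) and Tlr13 (ENSMUSG00000033777, chrX:106143204-106160493, plus strand). Tlr1 lies on chromosome 5 (ENSMUSG00000044827, chr5:64924679-64933563, minus strand).

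The sequence upstream of the genes that were called is shown because it holds the core recognized by PU.1, a transcription factor that macrophages need and that is known to act at many of their genes. Each stretch reads 5′ to 3′ on the strand of its gene and ends just before the gene's outermost annotated start. It was taken from RefSeq (GRCm38.p6), whose table held 8 of the 10 members, and Tlr4 and Tlr7 had no entry. Capitals mark GAGGAA on either strand. The positions are chr5:64933564-64933808 (minus strand) for Tlr1, chrX:167264330-167264579 (minus strand) for Tlr8 and chrX:106143025-106143203 (plus strand) for Tlr13, which is shorter because the GENCODE and RefSeq starts differ.
Tlr1: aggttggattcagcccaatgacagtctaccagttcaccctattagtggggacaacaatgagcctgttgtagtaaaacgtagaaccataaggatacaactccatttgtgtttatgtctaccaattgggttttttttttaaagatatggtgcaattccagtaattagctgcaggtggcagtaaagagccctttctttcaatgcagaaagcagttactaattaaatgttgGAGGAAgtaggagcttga
Tlr8: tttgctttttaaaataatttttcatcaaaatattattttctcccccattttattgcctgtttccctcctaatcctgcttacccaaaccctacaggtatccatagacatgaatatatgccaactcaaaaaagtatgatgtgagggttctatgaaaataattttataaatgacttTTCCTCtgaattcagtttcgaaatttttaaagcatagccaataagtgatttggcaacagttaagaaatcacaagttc
Tlr13: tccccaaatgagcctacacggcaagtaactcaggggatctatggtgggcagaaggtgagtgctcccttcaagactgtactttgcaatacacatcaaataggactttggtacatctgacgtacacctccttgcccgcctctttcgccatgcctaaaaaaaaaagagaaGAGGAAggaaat
Each of the 3 genes had 1 match in the 250 bases before its outermost RefSeq start. It began at -23 for Tlr1, -77 for Tlr8 and -83 for Tlr13. Of the other members, Tlr9 had 1 match, at -112, and Tlr2, Tlr3, Tlr5 and Tlr6 had none. The letters are common, with a match in 23.3% of 32851 promoter windows of that length, and were chosen after the fold changes were known. A match therefore only describes these windows, in a gene that fell as well as in genes that rose. The same search, on both strands, covered the interferon regulatory factor (IRF) motif (2.98% of windows), the composite ETS-IRF motif (2.30%), an AP-1 motif, TGANTCA (6.75%), and TATAAA (12.4%). Of these, only TATAAA occurred in the windows of Tlr1, Tlr8 and Tlr13, in that of Tlr8.

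Library totals ran from 42548170 to 58947230 counts, and the members together took 77088 to 102761 reads per library, so that counting error was small for all members but Tlr5. Mtdh, the targeted gene, had 11560 to 14849 reads in the WT libraries and 15 to 22 in the AEG-1 KO libraries. In the markers of macrophages, Lyz2 and Adgre1 stood at 9743 and 4605 CPM in WT (CPM, counts relative to the library total after TMM correction) and at 10141.5 and 4040.4 CPM in AEG-1 KO, and Adgre1 was called lower. All 8 T and NK cell markers together summed to 0.157 to 0.470 CPM in the 6 libraries. Over the 651 tested genes of the X chromosome 18 were called higher and 26 lower, 6.76% against 6.35% of all genes tested. Without the 3 members the median log2 fold change of that chromosome was -0.01. Xist, which is transcribed from the inactive X chromosome of female cells, averaged 1607 ± 53.8 CPM in the WT and 1655 ± 33.3 CPM in the AEG-1 KO libraries (SD, n = 3; adjusted p = 0.602, edgeR). Xist had 70658 to 90362 reads in every library. The Y-linked genes Ddx3y, Eif2s3y and Kdm5d had 0 to 7 reads in every library, and the Y-linked gene Uty had 10 to 20. All of these Y-linked genes were highest in AEG-1 KO replicate 2, at 7, 6, 5 and 20 reads. Neither group stood apart in these sex-linked transcripts.

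Levels of the members spanned a wide range. Per kilobase of exon, WT macrophages held 118 ± 2.72 CPM of Tlr1, 111 ± 4.13 of Tlr2 and 94.3 ± 4.41 of Tlr13 (SD, n = 3). The groups of 3 WT values of Tlr1 and Tlr2 lay next to each other without overlap, from 116 to 121 and from 109 to 116. Next came Tlr7 at 49.3 ± 3.12, Tlr8 at 46.8 ± 2.93 and Tlr9 at 35.1 ± 2.66 CPM per kilobase. The WT values of Tlr7 and Tlr8, 47.2 to 52.9 and 44.2 to 49.98, overlapped, although Tlr7 was the higher of the pair within each of the 6 libraries. Tlr4, the lipopolysaccharide receptor gene, stood lower at 16.7 ± 0.951, followed by Tlr6 at 7.72 ± 0.312 and Tlr3 at 4.48 ± 0.394. Tlr5 was at 0.151 ± 0.0121 CPM per kilobase. In AEG-1 KO the top of the order changed. Tlr13 stood at 129 ± 8.0 and Tlr2 at 127 ± 10.8, with overlapping ranges, and Tlr1 came after both at 96.8 ± 4.35 CPM per kilobase. From Tlr7 down, the order was the same in both genotypes.

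**Figure D1:**
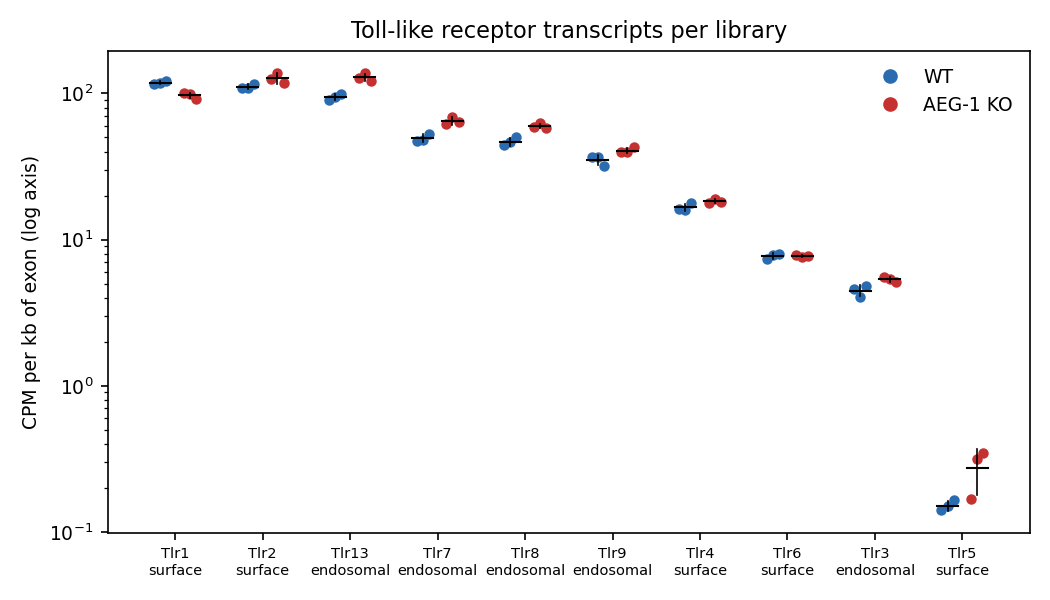
CPM per kilobase of exon (log axis) of each Toll-like receptor gene in each WT (blue) and AEG-1 KO (red) library, with a dash at each group's mean and a bar for its SD (n = 3). Tlr1 leads in WT at 118 CPM per kilobase and Tlr13 in AEG-1 KO at 129, while Tlr5 lies lowest in both.

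Endosomal receptor genes are described first. Tlr13, the receptor for bacterial ribosomal RNA, stood at 386, 408 and 424 CPM in WT replicates 1 to 3 and at 547, 591 and 523 CPM in AEG-1 KO replicates 1 to 3. The lowest AEG-1 KO library lay well above the highest WT library, and AEG-1 KO replicate 2 was the highest of all. The log2 fold change was 0.45 ± 0.06 (SE; adjusted p = 0.0018, edgeR), or 1.36-fold. Without any 1 library it was 0.39 to 0.48 and remained called (adjusted p from 0.00148 to 0.014 in edgeR).

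Tlr7 and Tlr8, both receptors for single-stranded RNA and its breakdown products, lie side by side on the X chromosome, with 40600 bases between them. Tlr7 was at 193, 195 and 216 CPM in the WT libraries and at 252, 282 and 259 CPM in the AEG-1 KO libraries. Tlr8 was at 159, 166 and 179 CPM in WT and at 212, 224 and 209 CPM in AEG-1 KO. Neither gene's groups overlapped, WT replicate 3 was the highest WT library for both, and AEG-1 KO replicate 2 the highest AEG-1 KO library. The log2 fold changes were 0.39 ± 0.06 for Tlr7 and 0.36 ± 0.05 for Tlr8 (SE; adjusted p = 0.0052 for each, edgeR). Both calls remained without any 1 library (edgeR adjusted p up to 0.0373 and 0.0456). With the dependence of counts on length and GC modelled, the log2 fold changes were smaller, 0.33 for Tlr7 and 0.29 for Tlr8, and still called. The ratio of the pair moved little, with 1.20 ± 0.0181 reads of Tlr7 per read of Tlr8 in WT and 1.23 ± 0.0352 in AEG-1 KO (SD, n = 3), and the ranges overlapped.

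The tested genes on either side of the pair were not called higher. Prps2, a nucleotide synthesis gene 15764 bases from Tlr7, had a log2 fold change of -0.01 (adjusted p = 0.943, edgeR). Tmsb4x, which encodes the actin-binding thymosin beta 4 and lies 33381 bases from Tlr8, had one of -0.22 (adjusted p = 0.0565, edgeR), and was called lower in 6 of 19 alternatives, among them DESeq2 (adjusted p = 0.0107). Beside Tlr13, the copper transporter gene Atp7a, 18278 bases away, was higher by 0.24 on the log2 scale (adjusted p = 0.0156, edgeR), a call lost in 4 of the 6 fits without 1 library, among them the fit without AEG-1 KO replicate 2 (adjusted p = 0.12, edgeR). The glycolytic gene Pgk1, 26607 bases away, had a log2 fold change of -0.04 (adjusted p = 0.667, edgeR). These neighbours were chosen by distance after the members' values were seen.

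Tlr9, the receptor for unmethylated CpG DNA, did not pass the test. It stood at 128, 127 and 112 CPM in WT and at 138, 137 and 149 CPM in AEG-1 KO, and here WT replicate 3 was the lowest library, unlike for Tlr7, Tlr8 and Tlr13. The log2 fold change was 0.21 ± 0.06 (SE; adjusted p = 0.0795, edgeR), with an unadjusted 95% interval of 0.07 to 0.35. DESeq2 on the same genes called it (adjusted p = 0.0419), and so did edgeR once the dependence of counts on length and GC was modelled (adjusted p = 0.00258). In 16 of 19 alternatives Tlr9 was not called (edgeR adjusted p up to 0.286), among them all 6 fits without 1 library (0.0648 to 0.207).

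Tlr3, the receptor for double-stranded RNA, was at 23.8, 21.1 and 25.1 CPM in WT and at 28.9, 27.8 and 26.8 CPM in AEG-1 KO. The groups did not overlap, but the log2 fold change of 0.26 ± 0.07 was not called (SE; adjusted p = 0.068, edgeR). Without WT replicate 3 it was called at 0.31 (adjusted p = 0.0322, edgeR), and DESeq2 called it with all libraries (adjusted p = 0.0491). The other alternatives, 17 of 19, did not call it (edgeR adjusted p up to 0.234). An antisense gene shares 381 exon bases with Tlr3, and the sources used here do not state how strand was handled in counting, so its value is uncertain.

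**Figure D2:**
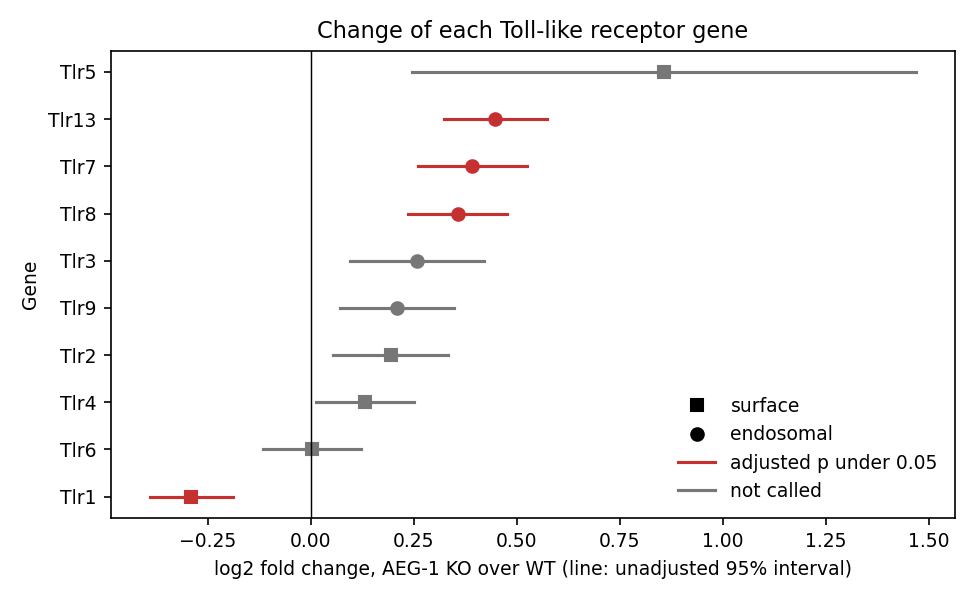
Log2 ratio of AEG-1 KO to WT for each Toll-like receptor gene with its unadjusted 95% interval, for surface (squares) and endosomal (circles) members, red where the edgeR adjusted p was under 0.05. Tlr13, Tlr7 and Tlr8 lie at 0.36 to 0.45, Tlr1 at -0.29 and Tlr6 at 0.00, and the interval of Tlr5 is the widest.

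Among the surface receptors, only Tlr1 was called. Tlr1, which pairs with Tlr2 to bind triacylated lipopeptides, stood at 389.7, 392 and 407 CPM in WT and at 335, 329.9 and 307 CPM in AEG-1 KO. All 3 AEG-1 KO libraries lay below all 3 WT libraries. The log2 fold change was -0.29 ± 0.04 (SE; adjusted p = 0.00597, edgeR), and without any 1 library it lay between -0.31 and -0.26 and remained called (edgeR adjusted p up to 0.0348).

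Tlr6, which pairs with Tlr2 to bind diacylated lipopeptides, lies 18468 bases from Tlr1 on chromosome 5. It stood at 27.4, 29.4 and 29.5 CPM in WT and at 29.2, 28.4 and 29.0 CPM in AEG-1 KO, so that the groups overlapped. The log2 fold change was 0.00 ± 0.05 (SE; adjusted p = 0.981, edgeR), with an unadjusted 95% interval of -0.12 to 0.12. Its sign changed with the scaling factors, the filter and the library left out, always within -0.04 to 0.02. Tlr6 reads per read of Tlr1 were 0.0726 ± 0.00224 in WT and 0.0892 ± 0.00439 in AEG-1 KO (SD, n = 3), and the ranges did not overlap.

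Tlr1 and Tlr6 are close copies of each other over part of their length. Their longest transcripts align over 1076 bases at 94.89% identity, and they share 6 runs of at least 50 identical letters, the longest of 229. The sources used here do not say how reads with several matches were treated, so the split of reads between the 2 genes is uncertain over those runs. No other member had a stretch of at least 95% identity over at least 100 bases with another gene, apart from Tlr3 with its antisense gene. Fam114a1, the nearest gene on the other side of Tlr6, was also lower, with a log2 fold change of -0.20 (adjusted p = 0.0412, edgeR), a call lost in all 6 fits without 1 library (adjusted p from 0.0552 to 0.144 in edgeR).

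Tlr2, the shared partner of Tlr1 and Tlr6, was at 328, 328 and 349.5 CPM in WT and at 379.7, 418 and 353 CPM in AEG-1 KO. AEG-1 KO replicate 3 lay just above WT replicate 3. Its log2 fold change of 0.19 ± 0.06 was not called (SE; adjusted p = 0.102, edgeR; unadjusted 95% interval 0.06 to 0.33), and was 0.12 without AEG-1 KO replicate 2. The reads of Tlr1 per read of Tlr2 went from 1.19, 1.20 and 1.16 in the WT libraries to 0.882, 0.79 and 0.871 in the AEG-1 KO libraries. The ratio was thus lower in all 3 AEG-1 KO libraries than in any WT library.

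Tlr4 was at 90.4, 88.9 and 98.7 CPM in WT and at 99.4, 105 and 99.8 CPM in AEG-1 KO. WT replicate 3 lay within 1 CPM of AEG-1 KO replicate 1. Its log2 fold change of 0.13 ± 0.05 was not called (SE; adjusted p = 0.185, edgeR; unadjusted 95% interval 0.01 to 0.25), and was 0.05 with the length and GC trend removed.

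Tlr5, the flagellin receptor gene, had so few reads that its value rests on counts of 30, 42 and 34 in WT and 36, 64 and 74 in AEG-1 KO. AEG-1 KO replicate 1 was close to the WT libraries in CPM, at 0.799 against 0.671 to 0.786, while the other 2 were at 1.5 and 1.65. The log2 fold change of 0.86 ± 0.27 was not called (SE; adjusted p = 0.101, edgeR). Without AEG-1 KO replicate 1 it was 1.12 and called (adjusted p = 0.0144, edgeR). The mouse receptor genes outside the 10, Tlr11 and Tlr12, had 2 to 5 and 2 to 9 reads per library and did not pass the filter on low counts.

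Set against each other library by library, the endosomal members gained on the surface members. In 9 of 10 members the groups did not overlap, 8 with AEG-1 KO higher and 1 with it lower, where 26.8% of all genes tested did not overlap, 13.9% with AEG-1 KO higher and 12.9% with it lower. The 8 were all 5 endosomal members and 3 of the 5 surface members, Tlr2, Tlr4 and Tlr5. Non-overlap with AEG-1 KO higher was thus found in both classes. The mean log2 CPM of the 5 endosomal members was 7.04 ± 0.0421 in WT and 7.37 ± 0.0358 in AEG-1 KO, and that of the 5 surface members 5.60 ± 0.0618 and 5.76 ± 0.108 (SD, n = 3). Because the genes differ in length, only the change in their difference is of use. Surface minus endosomal fell by 0.17 on the log2 scale with Tlr5 included and by 0.32 without it, where leaving Tlr5 out was decided with the data in view. With Tlr5 the difference was -1.46, -1.42 and -1.41 in the WT libraries and -1.71, -1.56 and -1.55 in the AEG-1 KO libraries. Its change was -0.12 without AEG-1 KO replicate 1 and -0.20 without AEG-1 KO replicate 3. Without Tlr5 the difference was 0.05, 0.07 and 0.07 in the WT libraries and -0.24, -0.25 and -0.29 in the AEG-1 KO libraries. These means rest on 5 or 4 genes each and were not tested.

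As a share of the summed CPM per kilobase of all 10 genes, endosomal members held 47.2%, 47.9% and 47.5% in WT and 53.8%, 54.3% and 55.3% in AEG-1 KO. Tlr1 went from 24.5% ± 0.237 to 17.6% ± 0.659, and Tlr13 from 19.5% ± 0.408 to 23.4% ± 0.345 (SD, n = 3). The share of Tlr2 was 23.0% ± 0.237 in WT and 23.1% ± 0.871 in AEG-1 KO, and its ranges overlapped. The sum itself was 472, 479.5 and 502 CPM per kilobase in WT and 545, 578 and 526 in AEG-1 KO. Summed over the surface members alone it was 249 to 263 in WT and 235 to 264 in AEG-1 KO, which overlapped, and over the endosomal members 223 to 238 and 291 to 314, which did not. In bulk RNA, fewer cells carrying a transcript and less of it per cell cannot be told apart.

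**Figure D3:**
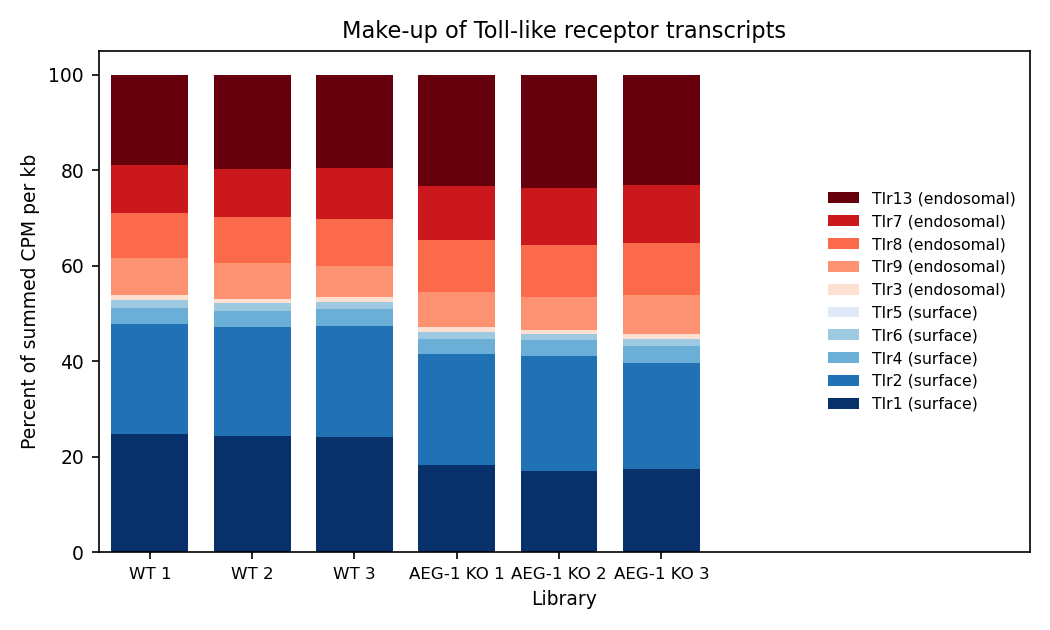
Percent of the summed CPM per kilobase of the 10 Toll-like receptor genes held by each gene in each library, with surface members in blue and endosomal members in red. Endosomal members hold 47.2% to 47.9% in the WT libraries and 53.8% to 55.3% in the AEG-1 KO libraries.

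**Figure D4:**
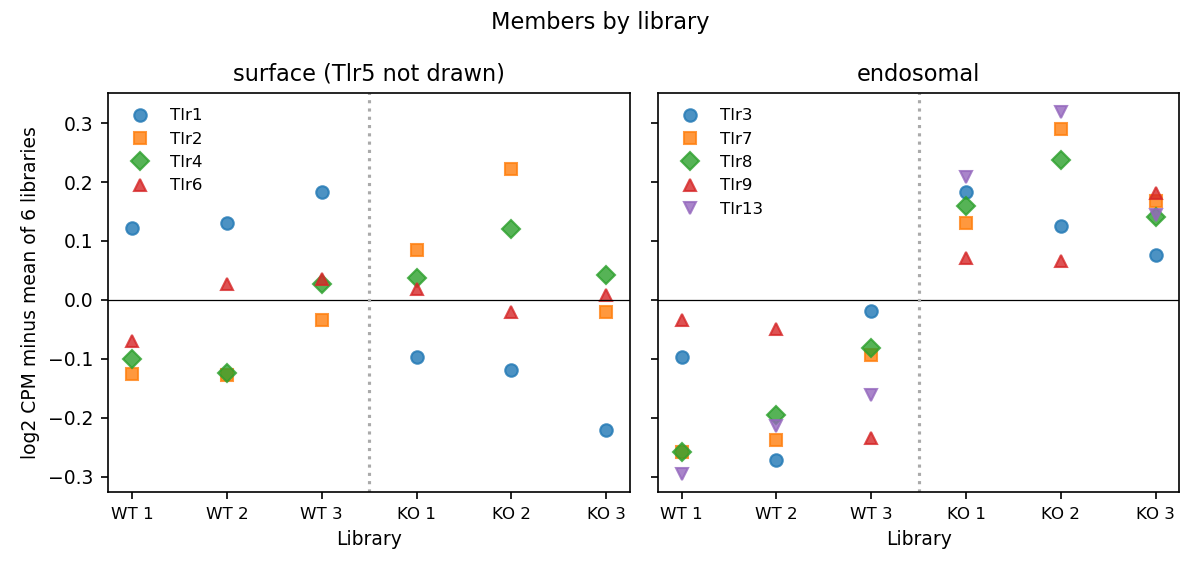
Log2 CPM of each member minus its mean over the 6 libraries, for surface members (left, Tlr5 not drawn) and endosomal members (right), with WT libraries left and AEG-1 KO libraries (KO) right of the dotted line. All 5 endosomal members lie below 0 in the WT libraries and above 0 in the AEG-1 KO libraries, and Tlr1 does the opposite.

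Genes with the most similar profiles were sought among 11138 tested genes averaging 1 CPM or more, by the root mean square difference of log2 CPM over the 6 libraries after each gene was centred on its mean. Fcgr2b, the inhibitory Fc gamma receptor gene, was nearest to both Tlr8, at 0.0135, and Tlr7, at 0.02. It rose from 50.5 ± 2.95 to 65.1 ± 3.03 CPM (SD, n = 3; adjusted p = 0.00643, edgeR), a call lost when AEG-1 KO replicate 2 was left out (adjusted p = 0.0507, edgeR), and shares a near-identical stretch with Fcgr3. The second for Tlr7 was Tlr8, at 0.0322, and the second for Tlr8 was Zfp953, at 0.0237. Tlr13 lay nearest to Pdgfc and Tmem144, at 0.0371 and 0.0387. Tlr1 lay nearest to Acsl5, a gene of fatty acid activation, at 0.0211, and to the pseudogene Amd-ps4, at 0.0219. For Tlr4 the nearest genes were Topors and Zfp655, at 0.00942 and 0.0148, and for Tlr9 Tcf7l2 and Fcna, at 0.0179 and 0.0202. Several of these share exon bases with another gene and are uncertain for that reason, namely Fcgr2b, Zfp953, Pdgfc, Acsl5, Topors and Fcna, and Amd-ps4 has near-identical copies.

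The partners that hand ligands to the surface receptors changed in part. Of 8 co-receptor and ligand transfer genes 3 rose and none fell, with a median log2 fold change of 0.01. Over all genes tested, 3.31% were called higher and 3.04% lower. Cd14, which passes lipopolysaccharide to the Tlr4 complex, went up from 251 ± 9.35 to 319 ± 2.30 CPM (SD, n = 3), a log2 fold change of 0.35 ± 0.04 (SE; adjusted p = 0.00161, edgeR). Ly86, which encodes the MD-1 partner of the Toll relative Cd180, rose from 74.9 ± 1.9 to 90.6 ± 1.84 CPM (adjusted p = 0.00646, edgeR). Lbp, the lipopolysaccharide-binding protein gene, was higher by 0.33 on the log2 scale (adjusted p = 0.0335, edgeR), which lost its call in 5 of the 6 fits without 1 library, up to an edgeR adjusted p of 0.118 without AEG-1 KO replicate 2. Ly96, which encodes the MD-2 subunit that binds lipopolysaccharide with Tlr4, averaged 20.9 CPM in the WT and 20.0 CPM in the AEG-1 KO libraries (adjusted p = 0.683, edgeR).

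Genes that bring nucleic acid receptors to endosomes and process them there showed small changes. Of 16 such genes 3 rose and 1 fell, with a median log2 fold change of 0.05. The shares over all genes tested were 3.31% called higher and 3.04% lower. The lysosomal protease gene Ctss, of a family known to cut endosomal receptors into their active form, rose from 2181 ± 118 to 2645 ± 31.9 CPM (SD, n = 3; adjusted p = 0.00841, edgeR), a call lost once AEG-1 KO replicate 2 was left out (adjusted p = 0.0653, edgeR). Lgmn and Ctsb were higher by 0.20 and 0.18 on the log2 scale (adjusted p of 0.0421 and 0.0496, edgeR), and both lost their calls in all 6 fits without 1 library. The member that fell, Slc15a3, lost its call in 4 of those fits. Slc15a3 shares 1541 exon bases with Tmem132a and Ctsb 774 with Fdft1, each on the opposite strand, so both values are uncertain. Unc93b1, the chaperone that carries endosomal receptors out of the endoplasmic reticulum, averaged 991 ± 141 CPM in the WT and 925 ± 71.0 CPM in the AEG-1 KO libraries (SD, n = 3; adjusted p = 0.617, edgeR). It was named, like Ly96, Slc15a3 and Pgk1, after its values were seen.

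Below the receptors, the signalling genes were mostly not called. Of all genes tested 6.35% were called, 3.31% higher and 3.04% lower. With lists this short, 1 or 2 calls were not read as a change of the list. Of 6 adaptor genes of the Toll/interleukin-1 receptor (TIR) type, none rose and 1 fell, with a median log2 fold change of -0.14 and all 6 members below 0. Ticam2, the TRAM adaptor that links Tlr4 to TRIF, fell from 58.8 ± 1.26 to 47.9 ± 1.66 CPM (SD, n = 3), a log2 fold change of -0.30 ± 0.05 (SE; adjusted p = 0.00664, edgeR). Leaving out AEG-1 KO replicate 2 ended this call (adjusted p = 0.051, edgeR), and its value is uncertain because it shares 838 exon bases with Tmed7 on the same strand. Of 17 kinase and ubiquitin ligase genes none rose and 2 fell, Ikbke by 0.20 and Map3k8 by 0.17 on the log2 scale (adjusted p of 0.0238 and 0.0449, edgeR), and these lost their calls in 3 and 5 of the 6 fits without 1 library. Ikbke is also uncertain because 2 antisense genes overlap its exons. Of 13 transcription factor genes 1 rose, the AP-1 subunit gene Fos, and its call was lost in 5 of those fits (adjusted p = 0.0381, edgeR, up to 0.154 without WT replicate 2). The medians of these lists were 0.02 for kinases and ligases and 0.06 for transcription factors. Of 16 tested inhibitors of the pathway 1 rose, Nfkbie, an inhibitor of NF-kB, from 23.1 ± 2.28 to 33.4 ± 2.68 CPM (SD, n = 3; adjusted p = 0.00613, edgeR).

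Genes known to be induced through Toll-like receptors moved both ways in these untreated cells. Of 24 tested response genes 4 rose and 6 fell, with a median log2 fold change of -0.10. Among all genes tested, 3.31% were called higher and 3.04% lower. Marco, a scavenger receptor gene, fell to 64.9% of WT (adjusted p = 0.000149, edgeR), Il10, an anti-inflammatory cytokine gene, to 64.4% (adjusted p = 0.00169, edgeR) and Ccl4, a chemokine gene, to 76.2% (adjusted p = 0.00465, edgeR). Tnf, Ccl3 and Lcn2 also fell, and Cd80, Cd86, Cxcl1 and Cxcl2 rose, named after their values were seen. Of 15 other sensors of nucleic acids and microbes 2 rose and 1 fell. Nlrp3, the inflammasome sensor gene, rose from 48.2 ± 2.42 to 66.9 ± 5.15 CPM (SD, n = 3; adjusted p = 0.00343, edgeR). Tmem173, which encodes STING, was higher by 0.24 on the log2 scale and Zbp1 fell by 0.19 on the log2 scale (adjusted p of 0.0247 and 0.0499, edgeR), with calls lost in 4 and 5 of the 6 fits without 1 library.

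**Figure D5:**
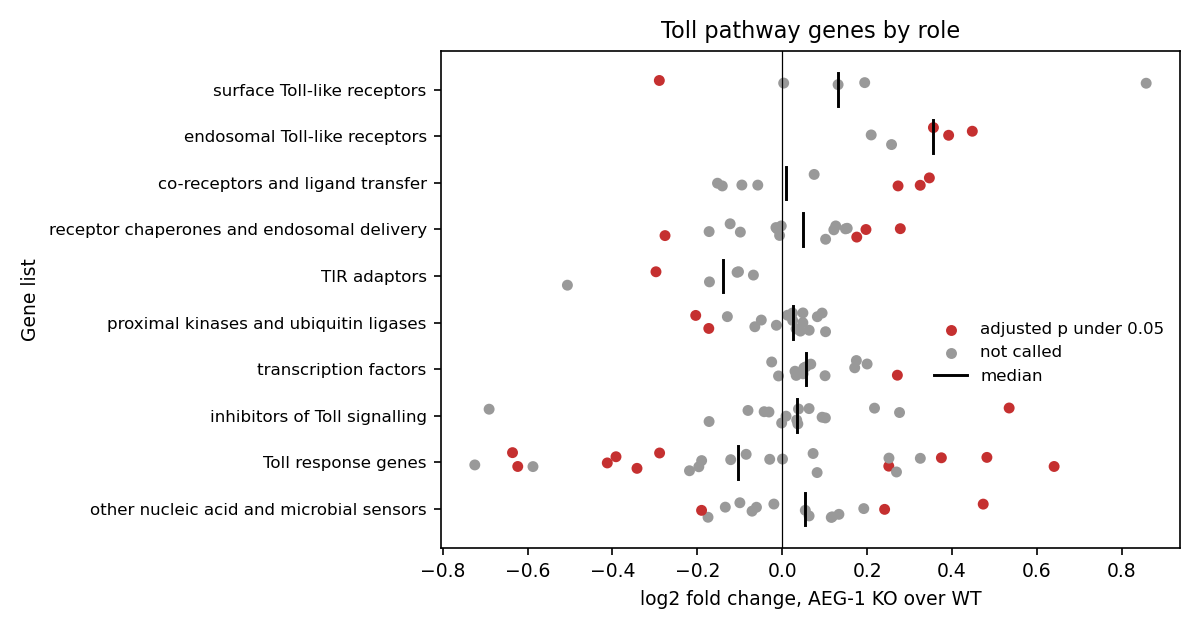
Log2 ratio of AEG-1 KO to WT for the Toll-like receptors and for 8 lists of pathway genes, 1 point per tested gene, red where the edgeR adjusted p was under 0.05, with the median of each list as a line. The medians are 0.36 for endosomal and 0.13 for surface receptors, and lie between -0.14 and 0.06 for the other lists.

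Markers of other cells that carry Toll-like receptors were measured in the same libraries, and their part in the members' changes was not tested. The counts stand beside those of all genes tested, of which 3.31% were called higher and 3.04% lower. Of 11 monocyte markers 6 rose and none fell (median log2 fold change 0.47), with a summed level of 212 to 236 CPM over the WT and 268 to 288 CPM over the AEG-1 KO libraries. Of 11 tested neutrophil markers 6 rose and 1, Lcn2, which is also among the response genes, fell (median 0.62), with sums of 449 to 458 and 506 to 555 CPM. Of 10 tested fibroblast, stromal and endothelial markers 5 rose and none fell (median 0.91), with sums of 9.45 to 10.6 and 14.9 to 17.3 CPM. B cells are known to carry Tlr7 and Tlr9, and of 6 tested B cell markers 1 rose and 1 fell, with sums of 78.4 to 84.0 and 66.7 to 72.8 CPM, and the defining markers Ms4a1 and Cd79a were at 0.567 to 1.19 CPM in the group means, each higher in AEG-1 KO and neither called. Of 7 tested plasmacytoid dendritic cell markers none rose and 1 fell (median 0.02). Spib was the one that fell, from 6.83 to 3.38 CPM (adjusted p = 0.000374, edgeR). The sums of 335 to 417 and 347 to 406 CPM overlapped, but were mostly Bst2 and Tcf4, at 284 and 80.7 CPM in WT. The defining marker of plasmacytoid dendritic cells, Siglech, had 31, 2 and 111 reads in WT and 1, 52 and 49 in AEG-1 KO, with low and high libraries in both groups, and Klk1 was at 0. Of 5 tested conventional dendritic cell markers none was called by edgeR, with 1 at an unadjusted p under 0.05, a median of 0.35 and sums of 13.5 to 14.8 and 15.0 to 15.6 CPM. Of 13 pan-macrophage markers 4 rose, namely Csf1r, Mertk, Mrc1 and Cd14 of the co-receptors, and 1, Adgre1, fell (median 0.24). Their sums were 19684 to 20148 CPM in WT and 20653 to 20930.2 CPM in AEG-1 KO.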

How the data were processed

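Raw read counts per Ensembl gene were deposited as 1 table with 6 library columns, per the file headers. Total RNA was made into libraries with a TruSeq kit, per the labels' protocols. The tools edgeR 3.18.1, featureCounts 1.4.6-p4, Subread, cutadapt 1.9 and FastQC 0.11.2 are named per the submitters' processing notes, with builds mm10 and GRCm38 and no role or order. The sources used here do not state the annotation release, the strand setting or the treatment of multiple matches. Symbols, positions and exon lengths came from GENCODE mouse release 21 (GRCm38), which matched 46488 of 46983 identifiers.

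Genes passing filterByExpr (minimum count 10) received TMM factors and the quasi-likelihood test of edgeR 4.0.16 (R 4.3.3), genotype being the only term, with Benjamini-Hochberg adjustment over 16115 genes. Standard errors came from the log2 fold change and its F statistic. Log2 CPM used a prior count of 2. The fit was tested on simulated data, with independent libraries and changes larger than those of the called members. That test therefore does not show how well such smaller changes are found, nor whether replicates were technical. Chi-square per degree of freedom between replicates was 5.58 to 19.3, so none was a duplicate.

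The members, gene lists and alternatives were chosen with earlier results of these data known. Genes named by rule were the members, Tlr11, Tlr12, Mtdh, up to 3 called genes with the smallest p of each pathway list, and the 2 nearest profiles of each called member and of Tlr4 and Tlr9. Neighbours, cell type markers, Xist, the Y-linked genes and those the text says so of were named outside that rule. A gene of the B cell list is not reported here. Copies were sought with BLAST+ 2.17.0. Alternatives were RLE, upper-quartile and no scaling, other filters, DESeq2 1.42.0, limma-voom (limma 3.58.1), robust and legacy fits, a replicate block, removal of a length and GC trend (mgcv 1.9.3), thinning, an adjusted p of 0.01, a prior count of 0.5, and leaving out each library.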

Additional observations from a re-analysis of the deposited data

How the results depend on the processing

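Of the 10 members 4 were called, and 4 to 6 in the alternatives run other than the replicate block, which called 1, Tlr13 (adjusted p = 0.0321, edgeR). The labels do not say whether a shared replicate number marks a shared animal, culture or day. Same-numbered libraries had correlations of their deviations from the group mean of -0.27 to -0.17. With deviations centred within groups of 3 libraries, these values cannot settle whether the libraries were paired. Under the block Tlr7, Tlr8 and Tlr1 had log2 fold changes 0.39, 0.36 and -0.29, with adjusted p of 0.0503, 0.0582 and 0.0878 in edgeR, and with the length and GC trend also removed 5 members were called. Leaving out each library called 4 to 5. Over all genes 1023 were called, 227 with the replicate block, 2310 with the length and GC trend removed, 393 at an adjusted p of 0.01 and 380 to 1094 without 1 library, 441 without WT replicate 2, 380 without AEG-1 KO replicate 2, 667 without AEG-1 KO replicate 1 and 606 without AEG-1 KO replicate 3. The cause was not tested. Of the pathway genes named by rule, Cd14, Nfkbie, Marco, Il10 and Ccl4 also passed under the block. The change in surface minus endosomal, AEG-1 KO minus WT, was -0.17, and -0.32 without Tlr5. With Tlr5 and the length and GC trend removed it was -0.149.

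Tlr6 turned negative with RLE factors (-0.00476), upper-quartile factors (-0.00195), no filter (-0.0103), the stricter filter (-0.00153), DESeq2 (-0.00476), and the length and GC trend removed without and with the replicate block (-0.0109 and -0.0106). Leaving out each library gave -0.0415 to 0.0181 for Tlr6, and -0.0503 to 0.011 for Prps2. The stricter filter dropped Tlr5. Tlr5, with 30 to 74 reads per library, had the widest interval among the members.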
